A study of Mus musculus with 12 samples.

Results

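Endothelial cells line the blood vessels, and the 30 genes described here are ones that mark them in most organs: receptors of vascular growth factors, junction proteins, surface and secreted glycoproteins, transcription factors of the vessel wall, and a Notch ligand with its receptor. They were taken by symbol from an expression table of F1 mouse testes. All 30 were among its 20788 genes, and 29 were among the 16395 genes that passed a filter on low counts and were tested; Gpihbp1 did not pass. The table was read for 12 libraries in 4 groups of 3. Group 8276OV received virus to overexpress lncRNA8276, a long non-coding RNA, and group 8276KD received virus to inhibit it. The remaining groups, 3NC and 5NC, serve as controls; the design text names 5NC next to overexpression and 3NC next to knockdown, and the comparisons follow that order. All 4 groups carry the strain label IRC mouse, the tissue label testes and total RNA as the starting material. The labels do not give the animals' age, the kind of virus, the promoter it carries, the cells it entered, or what the controls received. Nothing in them ties a library to an animal of its own, so each p-value rests on a spread between libraries that may be technical. LncRNA8276 itself was not analysed here, and the labels were therefore not checked against it.

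Blood vessels of the testis run in the interstitium, between the seminiferous tubules and among the Leydig cells, and do not enter the tubules. Their endothelium grows and survives on VEGF, which signals through the receptor encoded by Kdr and is trapped by the one encoded by Flt1, and it is stabilised by angiopoietins acting on Tek, with Tie1 and the phosphatase Ptprb as modulators. Dll4 and Notch4 take part in arterial and sprouting fate, and the transcription factors Sox7, Sox17 and Sox18 (the SOXF family), Erg and Tal1 switch on much of the endothelial programme. Several of these genes are not exclusive to vessels. Pecam1, Icam2, Cd93 and Ly6c1 are also expressed by blood leukocytes, Cd34 by stromal cells, Cldn5 by Sertoli cells and Sox17 by male germ cells. In whole testis, fewer cells of a type and less RNA per cell cannot be told apart.

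Total counts lay between 13485479 and 15771655 per library. Library 3NC T2 stood apart from the rest: its median correlation with the other libraries was 0.948, against 0.974 to 0.984 for the other 11. Its 20 leukocyte markers summed to 1292 CPM (counts scaled to library size), against 420.9 to 539.8 CPM elsewhere, and its 13 interferon response genes to 565.1 CPM, against 43.5 to 155.3 CPM. Values without it are given beside the results that turn on it. The endothelial label held in every library: Cdh5, the cadherin of endothelial junctions, had 74 to 157 counts, Kdr 57 to 173 and Pecam1 29 to 144.

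Ly6c1 is the member whose reads are hardest to assign, so its sequence is shown against that of its neighbour. It encodes a small GPI-anchored surface protein of the Ly6 family, and Ly6c2, its nearest relative, marks monocytes and lymphocytes. On GRCm38 Ly6c1 lies on chromosome 15 at 75044018 to 75048920 and Ly6c2 at 75108161 to 75112066, 59.2 kb apart. Their coding sequences were identical at 384 of 393 bases (97.7%), with a longest identical run of 188 bases, and their whole transcripts at 802 of 844 aligned positions. The coding part of exon 4 is printed 5′ to 3′ from GENCODE M21 on GRCm38, for Ly6c1 at chr15:75045405-75045610 and for Ly6c2 at chr15:75108546-75108751, both on the minus strand, with capitals on the 3 bases that differ.
Ly6c1: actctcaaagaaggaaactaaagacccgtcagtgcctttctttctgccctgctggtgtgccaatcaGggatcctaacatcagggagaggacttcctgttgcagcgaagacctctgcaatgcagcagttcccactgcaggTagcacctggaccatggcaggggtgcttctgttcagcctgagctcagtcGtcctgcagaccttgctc
Ly6c2: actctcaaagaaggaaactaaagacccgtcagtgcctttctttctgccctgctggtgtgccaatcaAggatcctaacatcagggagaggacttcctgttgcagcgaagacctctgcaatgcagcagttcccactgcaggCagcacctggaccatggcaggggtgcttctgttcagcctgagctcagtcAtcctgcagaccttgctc
The coding parts of exon 3 (117 bases) did not differ at all, and those of exon 2 (70 bases) differed at 6 bases. Reads inside the shared runs fit both genes, and the estimated counts of Ly6c1 carried fractions, as did those of Cd93 and Nos3; the other 27 members had whole counts in all libraries. Ly6c2 had 78.5 CPM in 3NC T2 and 0 to 1.13 CPM in the other 11 libraries.

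Per transcript length, the endothelial genes lay far below a protamine gene of sperm, and their rank among all genes was not worked out. On the deposited FPKM scale (fragments scaled to transcript length and library size), median levels over the 12 libraries ran from 0.105 for Gpihbp1 to 8.75 for Cd34, while Prm1, the protamine that packs sperm chromatin, had a median of 11140 FPKM. Cd34, a sialomucin of capillary endothelium and stroma, ranged from 6.16 to 12.9 FPKM. Ly6c1 came next with a median of 6.83 FPKM, followed by Cldn5, the claudin of tight endothelial junctions, with 5.27 FPKM, Sox17 with 5.00 FPKM and Egfl7, a secreted matrix protein of growing vessels, with 4.33 FPKM. Each of these 5 genes overlapped its neighbours in that order over the libraries, but the lowest value of Cd34 was above the highest of Cldn5 (5.64 FPKM) and of Egfl7 (5.42 FPKM). Kdr had a median of 1.05 FPKM, Flt1 1.08, Tek 1.06 and Tie1 0.66.

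At the low end stood Tal1, a basic helix-loop-helix factor of blood and endothelial progenitors, with a median of 0.215 FPKM, and Dll4 with 0.33 FPKM. Tal1 had 15, 6 and 14 counts in 3NC T1, T2 and T3, 15, 11 and 11 in 5NC, 16, 9 and 12 in 8276KD, and 14, 12 and 14 in 8276OV. Dll4 had 14, 23 and 11 counts in 3NC, 12, 19 and 18 in 5NC, 21, 15 and 21 in 8276KD, and 11, 12 and 19 in 8276OV. The counts of both genes overlapped in all 4 groups. Gpihbp1, which carries lipoprotein lipase to the capillary surface, had 2, 3 and 1 counts in 3NC, 1, 0 and 1 in 5NC, 4, 1 and 1 in 8276KD, and 0, 1 and 1 in 8276OV. Its counts of 0 in 5NC T2 and 8276OV T1 allow levels of up to 0.212 and 0.197 CPM (3 counts, counting error only), so no difference in Gpihbp1 was detectable at this depth.

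Icam2 and Plvap were also near the limit of the depth. Icam2, an adhesion molecule for leukocytes, had 8, 23 and 4 counts in 3NC, 17, 10 and 18 in 5NC, 7, 9 and 15 in 8276KD, and 5, 8 and 11 in 8276OV. Plvap, the protein of fenestral and caveolar diaphragms, had 12, 25 and 7 counts in 3NC, 10, 7 and 11 in 5NC, 21, 9 and 15 in 8276KD, and 17, 11 and 18 in 8276OV. For both genes 3NC T2 was the highest library and 3NC T3 the lowest (shared with 5NC T2 for Plvap when counted without scaling).

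**Figure D1:**
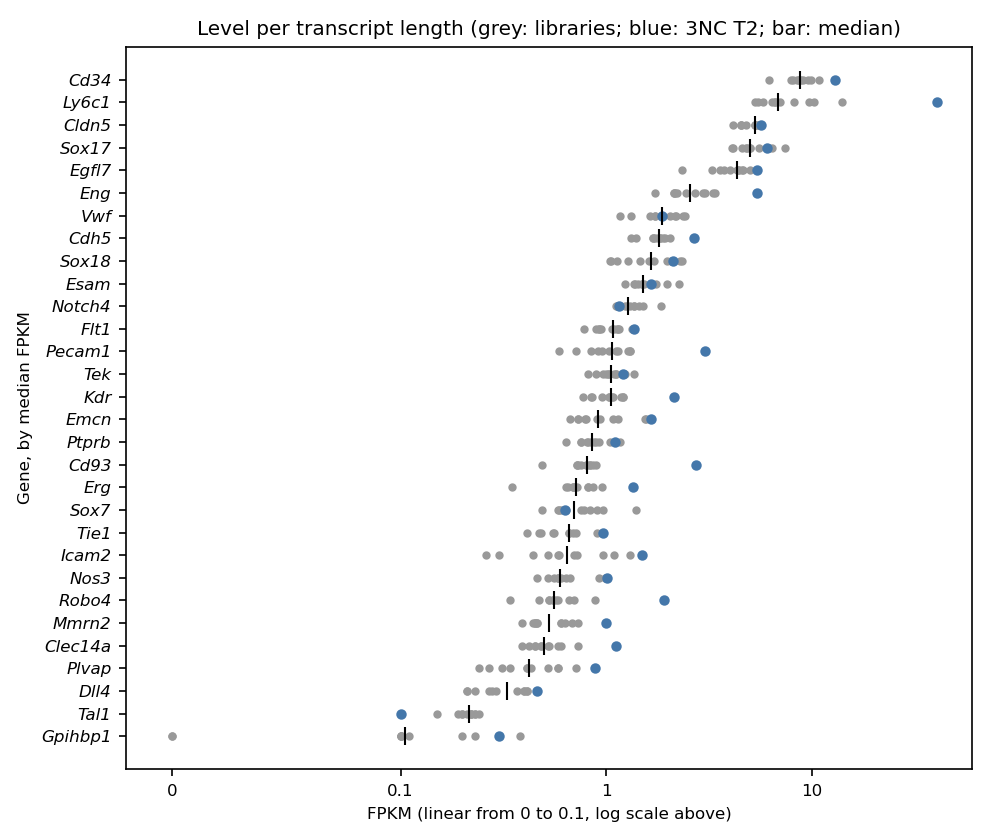
Level per transcript length of the 30 endothelial genes, in FPKM on an axis that is linear up to 0.1 and logarithmic above. Grey points are single libraries, blue points library 3NC T2 and bars the median. Cd34 has the highest median (8.75 FPKM) and Gpihbp1 the lowest (0.105 FPKM), and 3NC T2 is the outermost point for Ly6c1 at 40.5 FPKM.

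The remaining members varied less over the libraries than Ly6c1 did. Of the receptors, Tek ranged from 3.31 to 5.504 CPM over the 12 libraries (median 4.52), Tie1 from 1.48 to 3.58 (median 2.48) and Ptprb, which dephosphorylates Tek and VE-cadherin complexes, from 7.91 to 14.2 (median 10.2). Cdh5 ranged from 5.22 to 9.83 CPM, with 7.45 ± 2.26 in 3NC, 6.32 ± 0.955 in 5NC, 7.54 ± 0.34 in 8276KD and 6.64 ± 0.254 in 8276OV (SD, n = 3 per group). The spread of Cdh5 was widest in 3NC, which held its highest library, and the other groups all overlapped it.

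Among the glycoproteins, Vwf had 137 to 326 counts and ranged from 9.67 CPM in 5NC T2 to 20.5 CPM in 3NC T1 (median 15.9). Eng ranged from 6.02 CPM in 3NC T3 to 17.0 CPM in 3NC T2, with a median of 8.61. Emcn, an anti-adhesive sialomucin of capillaries and veins, ranged from 0.928 to 2.07 CPM, Clec14a from 1.72 to 4.70 and Mmrn2, which binds Clec14a and Cd93 in the vascular matrix, from 1.56 to 3.63. Erg, the ETS factor that maintains endothelial identity, ranged from 1.08 CPM in 3NC T3 to 3.88 CPM in 3NC T2 (median 2.11). For Eng, Clec14a, Mmrn2 and Erg the highest library was 3NC T2, and for these genes except Clec14a the lowest was 3NC T3.

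Apart from 3NC T2, the spread of many genes was not far above their counting error. Over the other 11 libraries the coefficient of variation of the 29 tested genes ran from 9.95% for Cldn5 to 46.3% for Icam2. In 15 of the 29 it was under 1.5 times the spread that counting alone gives, and the median ratio was 1.48. Counting alone gives 5.7% for Cd34 and 6.34% for Sox17, but 27.7% for Tal1 and 31.3% for Icam2.

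The largest differences in endothelial genes lay between libraries of the 3NC group. Summed over all 30 genes, CPM was 164.9, 236 and 130.9 in 3NC T1, T2 and T3, and between 144.4 and 175.2 in the other 9 libraries. As a mean over the 29 tested genes of log2 CPM minus each gene's own mean, 3NC T2 was at 0.53 and 3NC T3 at -0.35, against -0.16 to 0.10 in the other 10. The 3NC libraries thus held both the highest and the lowest level of the 12.

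Library 3NC T2 was the highest of the 12 for 15 of the 30 genes, which it was for 21.8% of all tested genes. It was at least 1.5 times the highest other library for 6 of them (7.08% of all tested genes): Ly6c1, Cd93, Robo4, Pecam1, Kdr and Eng. Against the mean of the other 11 libraries, Ly6c1 was 4.87 times as high there, Cd93, a C-type lectin receptor of endothelium and myeloid cells, 3.37 times, Robo4, a guidance receptor of vessels, 3.02 times, and Pecam1 2.82 times. Kdr and Eng, a co-receptor for BMP9 and TGF-beta, were each 1.99 times as high. The 5 transcription factors among the members did not share this as a group: Erg was 1.83 times as high, Sox18 1.21 and Sox17 1.08 times, Sox7 was at 0.772 of the mean and Tal1 at 0.432. Likewise Vwf, the clotting factor carrier stored in endothelial granules, was at 0.959 of the mean of the others, Esam at 0.975, Tek at 1.06 and Cldn5 at 1.07.

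By role, the 12 tested surface and secreted glycoproteins stood 0.87 (log2) above their mean in 3NC T2, the 5 junction and adhesion genes 0.58 and both VEGF receptors 0.53, while the 3 genes of the Tie system stood 0.28 above, the Notch pair 0.08 and the 5 transcription factors 0.01. Outside the members, 16 tested further endothelial transcription factors stood 0.82 above their mean there. Leukocyte markers were also higher in that library: 17 of 20 passed the filter, with a mean of 2.29 above their own level in 3NC T2, and Ptprc (CD45, on all leukocytes) had 95.5 CPM there against 1.98 to 3.89 CPM elsewhere. The B cell gene Cd79a stayed at 0 to 0.135 CPM in all libraries, and the T cell gene Cd3e was at 4.13 CPM in 3NC T2 and at most 0.265 CPM elsewhere. Interferon response genes were 3.72 above their own level there. Pericyte and vascular smooth muscle genes, the wall cells outside the endothelium, were 0.50 above. The part of leukocyte RNA in the endothelial values of this library was not tested.

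Library 3NC T3 was the lowest of the 12 for 12 of the 30 genes, against 13.5% of all tested genes, among them Cd34, Cd93, Pecam1, Eng, Egfl7, Erg and Ptprb. Egfl7 had 2.71 CPM there against 3.82 CPM or more elsewhere, and Cd34 at 15.3 CPM against 19.1 CPM or more. The 11 pericyte genes were 0.52 below their mean in the same library and the 8 Leydig cell genes 0.62 below, with summed levels of 30.8 and 1087 CPM. Leydig cell genes were lower still in 8276KD T1 (0.77 below, 982.5 CPM), where the endothelial genes stood at 0.02. The level of peritubular myoid genes was 0.84 above the mean in 8276KD T1. Epididymis and duct genes summed to 384.6 CPM in 8276KD T1, the highest of the 12 libraries. The part of tissue makeup in these library values was not tested.

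**Figure D2:**
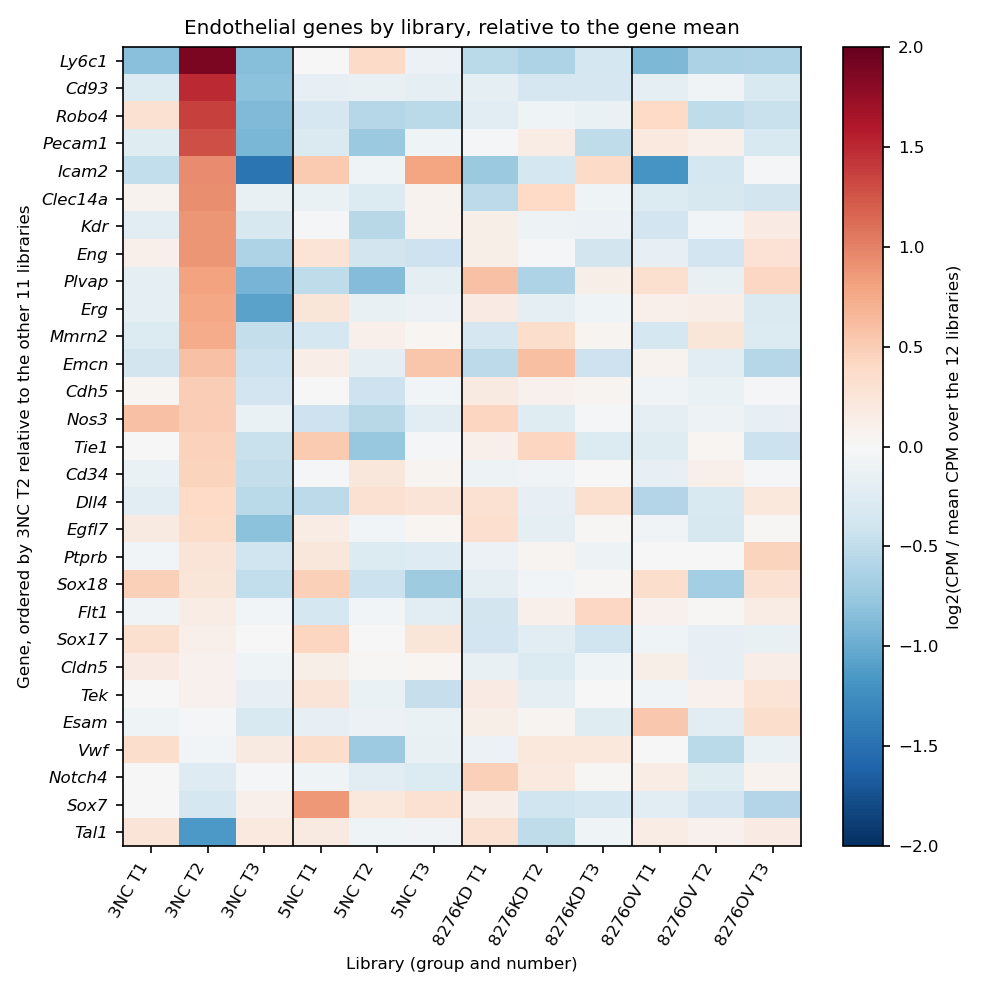
Endothelial genes that passed the filter (rows) in each of the 12 libraries (columns), as log2 of CPM over the gene's mean CPM, with colours cut at -2 and 2. Rows are ordered by 3NC T2 relative to the other 11 libraries, from Ly6c1 (4.87 times) at the top to Tal1 (0.432) at the bottom; the 3NC T2 column is red for most rows and the 3NC T3 column mostly blue.

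**Figure D3:**
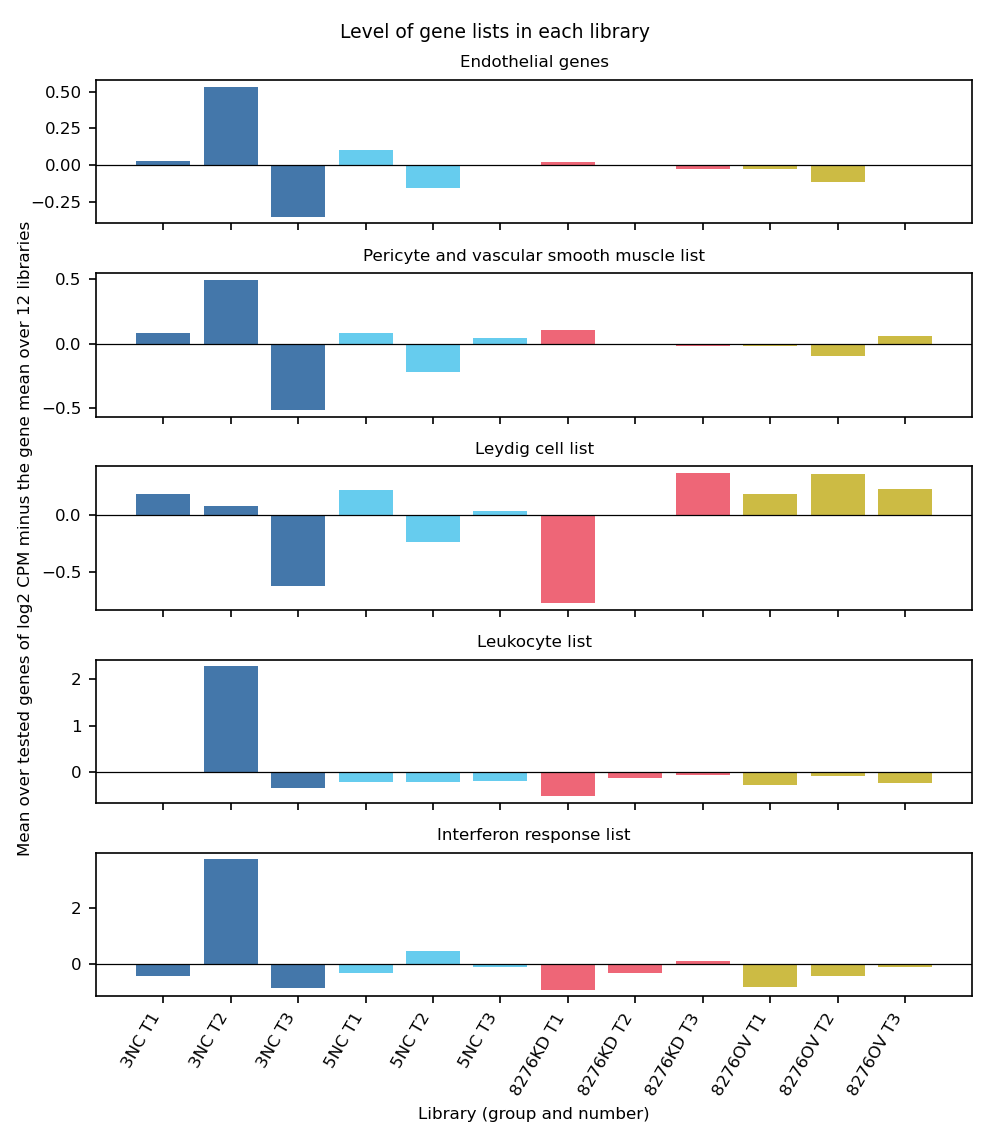
Mean over tested genes of log2 CPM minus the gene mean, for the endothelial genes and 4 other lists in each library; bars are coloured by group and each panel has its own vertical scale. The endothelial and pericyte panels have their highest bar at 3NC T2 (0.53 and 0.50) and their lowest at 3NC T3 (-0.35 and -0.52).

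Group 8276OV was set against 5NC to see which genes differ in libraries labelled for overexpression of lncRNA8276. None of the 29 tested endothelial genes passed edgeR's quasi-likelihood test at an adjusted p under 0.05, while 0.476% of all tested genes did (78 genes). Among the 29, 2 had an unadjusted p under 0.05, Sox7 and Sox17, both lower in 8276OV; 15.3% of all tested genes had one. The log2 fold changes had a median of -0.01, with 14 above 0 and 15 below; over all tested genes it was also -0.01. Single values ran from -0.89 for Icam2 to 0.70 for Plvap, both among the members with the fewest counts. By limma-voom 0 of the 29 passed, and by DESeq2 0 of the 14 to which it gave an adjusted p. Without 5NC T1 the median of the 29 was 0.14.

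Sox7 was at 4.34, 2.75 and 2.95 CPM in 5NC and at 2.04, 1.84 and 1.59 CPM in 8276OV. All 3 libraries of 8276OV lay below all 3 of 5NC, and 5NC T1 was the highest of the 12 libraries. In 3NC Sox7 was at 2.39, 1.88 and 2.57 CPM and in 8276KD at 2.62, 1.82 and 1.88 CPM, levels that overlapped each other and those of 8276OV. Sox7 had a log2 fold change of -0.88 ± 0.25 (SE), with an adjusted p of 0.132 by edgeR (unadjusted 0.00464) and 0.066 to 0.457 over the alternatives that gave one; DESeq2 gave none. Sox7 lies on chromosome 14 at 63943706 to 63950732.

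Sox17, which is needed for arterial identity and is also transcribed in germ cells, was at 22.6, 16.9 and 19.8 CPM in 5NC and at 15.8, 14.98 and 15.2 CPM in 8276OV. The groups did not overlap. Its log2 fold change was -0.37 ± 0.13 (SE; edgeR adjusted p = 0.187, unadjusted 0.0135). Sox18, the remaining SOXF gene, ranged from 1.51 to 3.46 CPM in 5NC and from 1.54 to 3.15 CPM in 8276OV, with no order between the groups.

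Esam, an adhesion molecule of endothelial tight junctions, had the next lowest p. It was at 2.45, 2.54 and 2.52 CPM in 5NC and at 4.01, 2.35 and 3.52 CPM in 8276OV, where the second library lay below all of 5NC. Esam had a log2 fold change of 0.40 ± 0.22 (SE), with an edgeR adjusted p of 0.448, and of 0.228 without 8276OV T1. Its values in 3NC were 2.59, 2.69 and 2.23 CPM and in 8276KD 3.00, 2.85 and 2.33 CPM.

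Ly6c1 was lower in 8276OV than in 5NC, and whether it passed depended on a library of another group. It was at 7.35, 9.60 and 6.76 CPM in 5NC and at 3.94, 4.70 and 4.78 CPM in 8276OV, without overlap. The log2 fold change was -0.82 ± 0.64 (SE; edgeR adjusted p = 0.617). With 3NC T2, where Ly6c1 was at 27.0 CPM, left out of the fit, the fold change was -0.82 and the adjusted p = 0.0284, and with the counts of Ly6c1 and Ly6c2 summed as well it was -0.75 (adjusted p = 0.0396). Leaving out 3NC T2 also raised the number of all tested genes that passed in this comparison from 78 to 521. Both fits without that library were added after the data were seen, and the adjusted p ran from 0.0284 to 0.88 over all alternatives that gave one. Interferon response genes summed to 66.4, 155.3 and 100.2 CPM in 5NC and to 44.0, 57.3 and 74.3 CPM in 8276OV. Leukocyte markers summed to 449.4 to 467.2 CPM in 5NC and 488.7 to 539.8 CPM in 8276OV. The largest part was Aif1, with a mean of 340.3 CPM in 8276OV. As a mean over genes of log2 CPM minus each gene's own mean, leukocyte markers overlapped (-0.222 to -0.2 in 5NC, -0.286 to -0.0928 in 8276OV). The part of both lists in the Ly6c1 values was not tested.

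In all, 7 of 29 genes had groups that did not overlap in this comparison, 3 higher in 8276OV (Flt1, Plvap and Nos3) and 4 lower (Sox7, Sox17, Ly6c1 and Clec14a). Over all tested genes, 22% had groups that did not overlap. Flt1 was at 4.84, 5.93 and 5.25 CPM in 5NC and at 6.57, 6.24 and 6.83 CPM in 8276OV, a log2 fold change of 0.29 ± 0.19 (SE; edgeR adjusted p = 0.52). Kdr, the signalling receptor for VEGF, overlapped, with 5.31 ± 1.14 CPM in 5NC and 5.61 ± 1.05 CPM in 8276OV (SD, n = 3 per group), and the 95% interval of its log2 fold change ran from -0.57 to 0.725. The interval of Cldn5 was narrower, from -0.34 to 0.28.

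**Figure D4:**
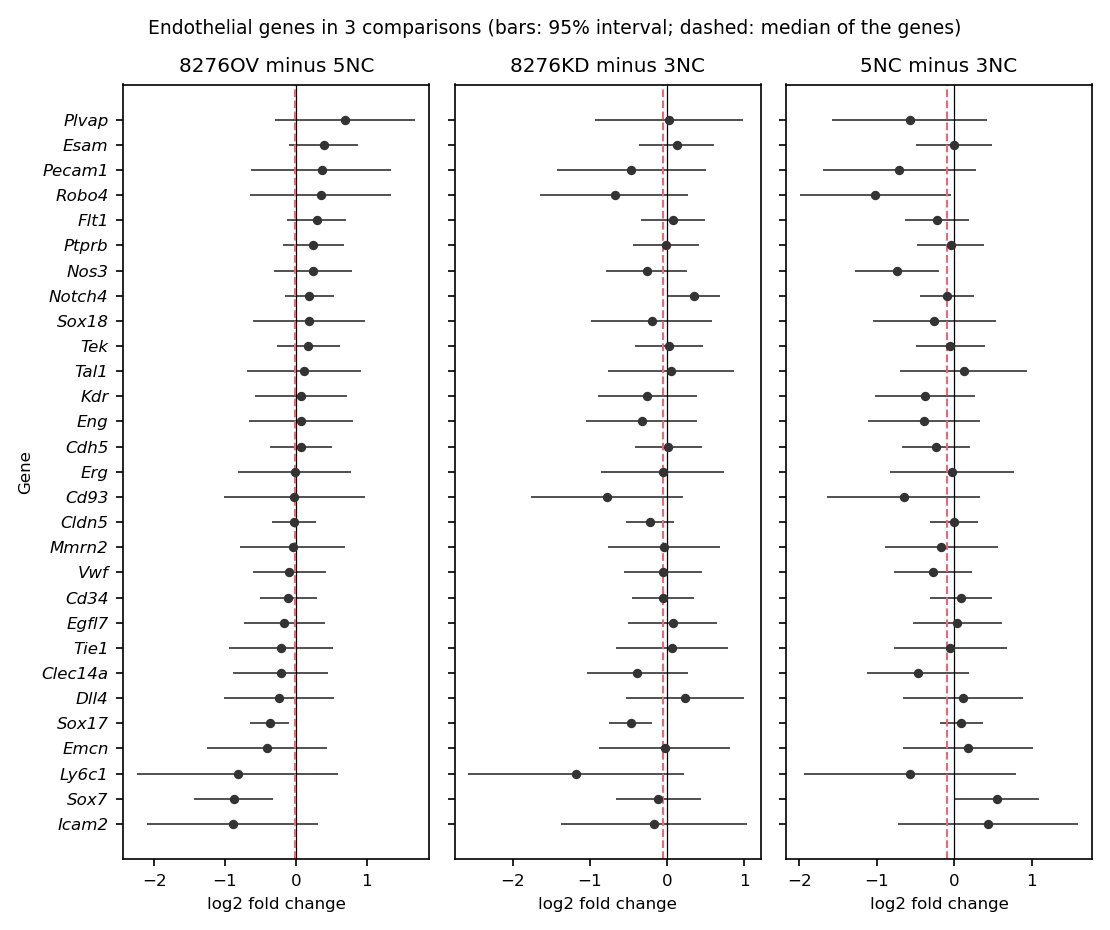
Log2 fold change of each of the 29 tested endothelial genes in 3 comparisons, with 95% intervals, ordered by the first panel; the dashed line is the median of the 29. The medians are -0.01, -0.05 and -0.09 from left to right, and the first 2 panels share no control while the third shares 5NC with the first and 3NC with the second.

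Inhibition of lncRNA8276 was compared with 3NC to see which genes differ when the RNA is lowered. Of the 29 endothelial genes, 0 passed by edgeR, DESeq2 or limma-voom; 3 of 16395 genes passed by edgeR (0.0183%). An unadjusted p under 0.05 was reached by 2 of the 29, Sox17 and Notch4, and by 8.69% of all tested genes. The median log2 fold change of the 29 was -0.05, with 10 above 0 and 19 below, and -0.03 over all tested genes. Without 3NC T2 that median was 0.23, with 22 genes above 0 and 7 below, and without 3NC T3 it was -0.264, so its size and sign rest on single libraries of 3NC.

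Sox17 had the lowest p of the 29 in this comparison. It was at 20.96, 17.97 and 16.8 CPM in 3NC and at 12.9, 14.5 and 12.8 CPM in 8276KD, again without overlap, and 3NC T2 did not stand out. Sox17 had a log2 fold change of -0.47 ± 0.13 (SE; edgeR adjusted p = 0.559, unadjusted 0.00294). It ran from -0.54 to -0.38 as each of the 6 libraries was left out in turn.

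Notch4, a Notch receptor of endothelium, went the other way. It was at 8.43, 7.08 and 8.32 CPM in 3NC and at 11.9, 9.72 and 8.68 CPM in 8276KD. All 3 libraries of 8276KD were above those of 3NC, the nearest by a small margin. The log2 fold change was 0.35 ± 0.16 (SE; edgeR adjusted p = 0.559, unadjusted 0.048). It was 0.213 without 8276KD T1, the library that stood apart in its Leydig, myoid and epididymis genes. Notch4 was at 7.98, 7.34 and 7.05 CPM in 5NC and at 9.46, 7.20 and 8.89 CPM in 8276OV, and these groups overlapped. Sox17 and Notch4 were the 2 of 29 genes whose groups did not overlap between 8276KD and 3NC, against 13% of all tested genes.

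The fold changes of 4 other genes in this comparison turned with 3NC T2. Ly6c1 was at 4.11, 27.0 and 4.06 CPM in 3NC and at 5.04, 4.80 and 5.76 CPM in 8276KD. Cd93 was at 4.98, 16.9 and 3.38 CPM in 3NC and at 5.30, 4.73 and 4.73 CPM in 8276KD. For both genes only 3NC T2 exceeded the 8276KD libraries by far. The log2 fold changes were -1.17 for Ly6c1, -0.78 for Cd93, -0.68 for Robo4 and -0.46 for Pecam1, and without 3NC T2 they were 0.35, 0.23, 0.03 and 0.425, none past the threshold.

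Cldn5 was at 7.23, 6.83 and 6.09 CPM in 3NC and at 5.81, 5.32 and 6.09 CPM in 8276KD. The third library of each group had the same level to 3 digits, and the other libraries of 8276KD were below all of 3NC. Cldn5 had a log2 fold change of -0.23 ± 0.14 (SE; edgeR adjusted p = 0.59). In 5NC it was at 6.98, 6.57 and 6.62 CPM and in 8276OV at 6.96, 5.73 and 7.10 CPM, which overlapped.

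**Figure D5:**
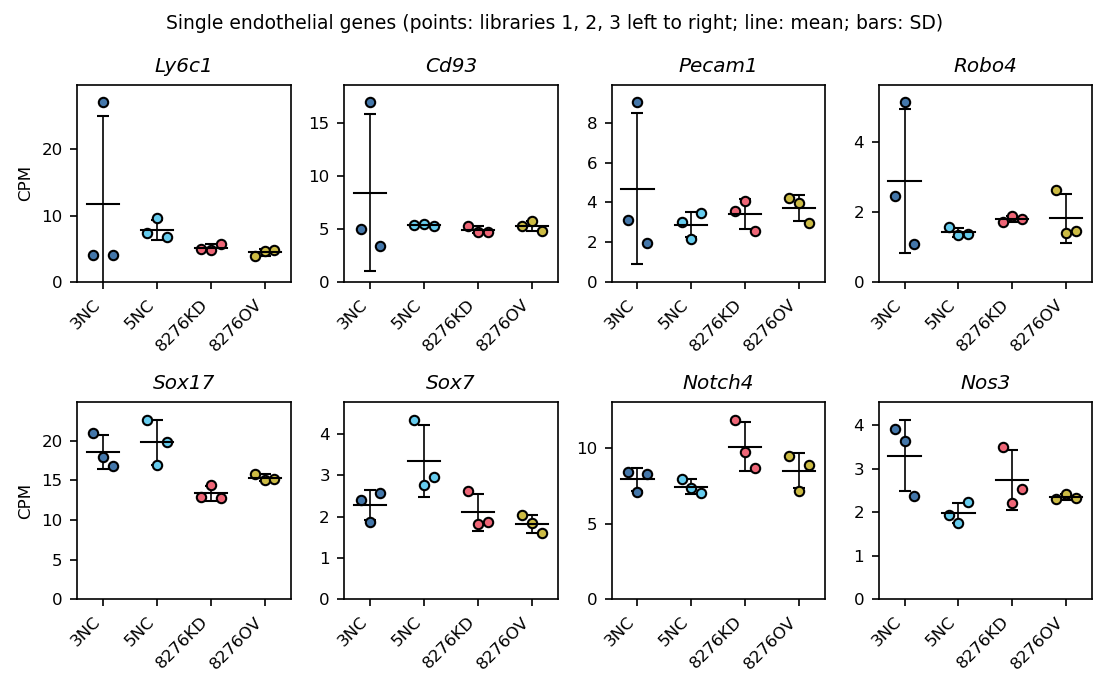
CPM of 8 endothelial genes in the 4 groups; points are libraries 1, 2 and 3 from left to right, lines the mean and bars the SD (n = 3), cut at 0 for Ly6c1. In the upper row 3NC T2 is far above the other libraries (27.0 CPM for Ly6c1 and 16.9 for Cd93), and for Sox17 the 6 libraries of 8276KD and 8276OV, at 12.8 to 15.8 CPM, all lie below the 6 control libraries, at 16.8 to 22.6 CPM.

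The control groups were compared to show how far endothelial genes differ between libraries that both count as controls. Again 0 of 29 genes passed by edgeR, DESeq2 or limma-voom, against 0.244% of all tested genes by edgeR (40 genes). An unadjusted p under 0.05 was found for 3 of the 29, Nos3, Robo4 and Sox7, and for 12.9% of all tested genes. The median log2 fold change of 5NC over 3NC was -0.09, with 9 genes above 0 and 20 below (-0.02 over all tested genes), and 0.08 without 3NC T2, with 21 above and 8 below. Without 3NC T3 it was -0.247.

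Nos3, the nitric oxide synthase of endothelium, had the lowest p of the members in this comparison. It was at 3.91, 3.63 and 2.37 CPM in 3NC and at 1.95, 1.77 and 2.23 CPM in 5NC. The groups did not overlap, and 3NC T1 rather than T2 was the highest. Nos3 had a log2 fold change of -0.74 ± 0.25 (SE; edgeR adjusted p = 0.276, unadjusted 0.0116). It was at 3.51, 2.20 and 2.53 CPM in 8276KD and at 2.30, 2.42 and 2.32 CPM in 8276OV.

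Robo4 was at 2.46, 5.13 and 1.08 CPM in 3NC and at 1.57, 1.34 and 1.37 CPM in 5NC. 3NC T3 lay below all of 5NC and the other libraries of 3NC above. Robo4 had a log2 fold change of -1.02 ± 0.45 (SE; edgeR adjusted p = 0.37) and -0.31 without 3NC T2. In 8276KD it was at 1.72, 1.88 and 1.81 CPM and in 8276OV at 2.63, 1.40 and 1.46 CPM.

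Sox7 was the member whose 5NC libraries lay above all of 3NC, with a log2 fold change of 0.56 ± 0.25 (SE; edgeR adjusted p = 0.379, unadjusted 0.0455). Without 5NC T1 it was 0.325. Nos3 and Sox7 were the 2 of 29 genes without overlap, against 13.2% of all tested genes. Since 5NC enters this comparison and that with 8276OV, the values of Sox7 there are not independent. Ly6c1 had a log2 fold change of -0.57 between the controls. Without 3NC T2 it was 0.95 (adjusted p = 0.0439), and with Ly6c2 summed in as well 0.77 (adjusted p = 0.0855). Leaving out 3NC T2 raised the number of all tested genes that passed from 40 to 126. Cd93 and Pecam1 likewise went from -0.65 and -0.71 to 0.36 and 0.18 without that library. Cd93 was at 5.34, 5.44 and 5.32 CPM in 5NC and at 5.32, 5.73 and 4.84 CPM in 8276OV, a narrow range that contrasts with the 3NC group.

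The constructs were also set against each other, a comparison that uses no control library. No gene of the 16395 passed by edgeR (0%; 343 genes, 2.09%, at an unadjusted p under 0.05) or by limma-voom, and 12 passed by DESeq2, none of them a member. The endothelial genes had a median log2 fold change of 0.0015 in 8276OV over 8276KD, with 15 above 0 and 14 below (0.0064 over all tested genes), and 0 of 29 had an unadjusted p under 0.05. The lowest were Notch4, at -0.24 ± 0.16, Sox17, at 0.20 ± 0.13, and Cldn5, at 0.20 ± 0.14 (SE; edgeR unadjusted p = 0.146, 0.15 and 0.184, adjusted p = 1). For Notch4 the fold change was -0.11 without 8276KD T1. Sox17 was higher in all 3 libraries of 8276OV than in those of 8276KD, and Cdh5 and Ly6c1 lower, which makes 3 of 29 without overlap against 10.6% of all tested genes. The 95% interval for Sox17 ran from -0.08 to 0.48.

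Whether the overexpression effect differed from the knockdown effect was tested as the difference of both fold changes. No endothelial gene passed (0.0183% of all tested genes did, 3 genes; 6.73% at an unadjusted p under 0.05), nor by DESeq2 or limma-voom. The median difference was 0.15, with 20 genes above 0 and 9 below (0.03 over all tested genes), -0.08 without 3NC T2 and 0.245 without 3NC T3. Sox7 came nearest, at -0.76 ± 0.36 (SE; edgeR unadjusted p = 0.0543, adjusted 0.741). For Sox17 the effects of overexpression and knockdown had the same sign.

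A comparison of both constructs with both controls, added after the data were seen, was led among the members by Sox17. All 6 libraries of 8276OV and 8276KD lay below all 6 libraries of 5NC and 3NC; 0.488% of all tested genes had this pattern, and Sox17 was the only member among them. Mean levels were 14.4 CPM with a construct and 19.2 CPM in the controls, a log2 fold change of -0.42 ± 0.090 (SE). Its edgeR adjusted p was 0.0869 (unadjusted 0.000523), so it did not pass, while 0.262% of all tested genes did (43 genes). It passed in 3 of 18 alternatives, DESeq2 (adjusted p = 0.00544) and the fit without 3NC T3 (0.038) among them, and over all 18 the adjusted p ran from 0.00544 to 0.255. Epididymis and duct genes summed to 67.2 to 384.6 CPM with a construct and 108.3 to 340.6 CPM in the controls, and 13 germ cell genes to 13880 to 18500 and 12790 to 17780 CPM. The ranges of both lists overlapped. The 384.6 CPM was in 8276KD T1, and the other libraries with a construct had at most 124.8 CPM of epididymis and duct genes. The part of both lists in the Sox17 values was not tested. On GRCm38 Sox17 lies on chromosome 1 at 4490928 to 4497426.

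Of the 29, 4 had an unadjusted p under 0.05 there, as did 17.8% of all tested genes. After Sox17 came Sox7, at -0.50 ± 0.18 (SE; edgeR adjusted p = 0.199), Notch4, at 0.27 ± 0.11 (0.244), and Ly6c1, at -0.997 ± 0.45 (0.28). Without 3NC T2 the value of Ly6c1 was -0.237 (adjusted p = 0.385). The median of the 29 was -0.05, with 8 above 0 and 21 below, 0.10 without 3NC T2 (20 above and 9 below) and -0.171 without 3NC T3. Cd34, the most abundant member per length, was at 19.4, 28.9 and 15.3 CPM in 3NC, 20.9, 24.9 and 22.2 CPM in 5NC, 19.9, 20.4 and 21.3 CPM in 8276KD, and 19.1, 22.98 and 21.02 CPM in 8276OV. The lowest and the highest of these 12 values were both from 3NC.

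Partners of these genes were counted in 7 vascular lists, of which no gene passed by edgeR in any of these comparisons when all 12 libraries were fitted. Of 10 tested VEGF ligands and other receptors, 4 were above 0 and 6 below in 8276OV over 5NC (median log2 fold change -0.11). Pgf, the placental growth factor that binds Flt1, was at 8.86, 5.65 and 6.19 CPM in 5NC and at 4.599, 2.57 and 2.59 CPM in 8276OV, without overlap, while 3NC and 8276KD ranged from 3.501 to 5.17 CPM. Its log2 fold change was -1.08 ± 0.26 (SE, edgeR adjusted p = 0.0907). The edgeR adjusted p ran from 0.104 to 0.376 as each library of 5NC and 8276OV was left out. With 3NC T2 left out of the fit Pgf passed (edgeR adjusted p = 0.0441). In that fit 521 of all tested genes passed, against 78 with all 12 libraries. Of the lists, 1 of 10 tested genes of the VEGF list passed there, 1 of 16 further endothelial transcription factors and 2 of 34 partners of single members. Vegfa itself was at 5.51, 15.97 and 4.46 CPM in 3NC and at 5.21 to 7.62 CPM elsewhere.

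Prox1, the transcription factor of lymphatic endothelium, was the gene of these lists with the lowest p in 8276OV over 5NC. It was at 11.8, 12.4 and 11.1 CPM in 5NC, at 17.9, 15.6 and 22.3 CPM in 8276OV, at 16.6, 15.3 and 16.8 CPM in 3NC and at 16.9, 21.2 and 20.6 CPM in 8276KD. The 3 libraries of 5NC were the lowest of the 12. The log2 fold change of Prox1 was 0.66 ± 0.14 for 8276OV over 5NC (SE; edgeR adjusted p = 0.0685; 0.0317 without 3NC T2 and 0.0344 without 8276OV T2) and -0.47 ± 0.14 for 5NC over 3NC (adjusted p = 0.227). These comparisons share the 5NC libraries. For 8276OV over 5NC the edgeR adjusted p of Prox1 ran from 0.0344 to 0.316 as each library of these groups was left out. Over both constructs together the log2 fold change of Prox1 was 0.47 ± 0.099 (SE, edgeR adjusted p = 0.085). The edgeR adjusted p was 0.0373 without 8276OV T2, 0.0991 without 3NC T2 and up to 0.259 as each library was left out. Flt4, the VEGF receptor of lymphatics, ranged from 8.40 to 13.9 CPM over the libraries. Lyve1, another lymphatic gene of these lists, had means of 0.382 CPM in 8276OV and 0.905 CPM in 8276KD. Prox1 had means of 18.6 and 19.6 CPM there. Which cells of the testis gave the Prox1 reads was not tested.

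In 8276KD over 3NC the lowest p of these lists were those of Mmrn1, a relative of Mmrn2 found in platelets and lymphatics, at -1.27 ± 0.42, and Id3, a helix-loop-helix inhibitor downstream of BMP signals, at -0.93 ± 0.31 (SE; edgeR adjusted p = 0.559 each). Mmrn1 was at 0.796, 2.13 and 0.812 CPM in 3NC and Id3 at 2.12, 4.76 and 2.23 CPM, with 3NC T2 far above the others in both; without it the fold changes were -0.632 and -0.452. Procr, the endothelial receptor of protein C, was at 1.33, 4.82 and 1.02 CPM in 3NC and at 0.628, 0.635 and 0.863 CPM in 5NC (log2 fold change -1.75 ± 0.54, SE; edgeR adjusted p = 0.236; -0.722 without 3NC T2). Of 16 further endothelial transcription factors, 15 were below 0 in 5NC over 3NC and 13 in 8276KD over 3NC, and 0 passed in either. Without 3NC T2 these counts were 9 and 6. As a list they stood 0.82 above their own level in 3NC T2, where the other 11 libraries lay between -0.25 and 0.02. Between the constructs, Angptl1, a relative of the angiopoietins, was at 0.93 ± 0.44 (1.41 without 8276KD T3) and Bcl6b, a repressor of endothelium, at -0.53 ± 0.25 (SE; edgeR unadjusted p = 0.0563 and 0.0573). Pericyte genes had medians of -0.03 in 8276OV over 5NC, 0.03 in 8276KD over 3NC and -0.16 in 5NC over 3NC, with 0 of 11 passing in each.

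The members are scattered over the genome, with a few neighbours. Icam2 and Pecam1 lie 266.1 kb apart on chromosome 11, and Robo4 and Esam 114.1 kb apart on chromosome 9. In 3NC T2 Robo4 was 3.02 times the mean of the other libraries and Esam 0.975 times. Gpihbp1 lies 547.7 kb from Ly6c1 in the Ly6 cluster of chromosome 15. Of the 30 genes, 16 matched a promoter in the RefSeq table for GRCm38.p6, which spans 250 bases before to 50 after a gene's start. The core of the ETS motif, GGAA on either strand, was in 15 of the 16 and in 95.9% of 27025 promoters, with Cldn5 the exception and a median of 4 matches in the members against 3 in all. The interferon-stimulated response element, searched as a pair of GAAA with 2 free bases between them on either strand, was in 0 of 16 and in 3.49% of all promoters, the gamma-activated site TTCNNNGAA in 0 of 16 and 8.47%, and the longer ETS site CCGGAAGT, which holds the core, in 0 of 16 and 4.0%. These are matches of letters in a short window.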

How the data were processed

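RNA from whole testes was sequenced in 12 libraries. The deposited table gives, per the file headers, an estimated count per gene and library, of which 88.2% are whole, and a second column whose values, compared with the deposited counts and totals, behave as FPKM. The FPKM were used only to compare genes. Per the submitters' processing notes the build was mm10. The sources used here name no aligner, counter, annotation or strand setting, and overlapping genes on opposite strands may therefore share reads. A further 18 columns, from 9 other samples, were set aside.

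Counts were rounded, filtered with filterByExpr (minimum count 10), scaled by TMM and fitted in edgeR 4.0.16 (R 4.3.3) with a robust quasi-likelihood model of group means over all 12 libraries, whose biological coefficient of variation was 19.7%. P-values were adjusted by Benjamini-Hochberg over all 16395 genes, with 0.05 as the threshold. CPM are counts relative to TMM-scaled totals, and list levels use log2 CPM with a prior count of 2. Intervals of fold changes are at 95% from the quasi-likelihood fit. The fit was tested on simulated data. Alternatives were other scalings, no filter, DESeq2 1.42.0, limma-voom (limma 3.58.1), a replicate block, fitting only the groups compared, leaving out each library, and summing Ly6c1 with Ly6c2. Leaving libraries out for genes of the vascular lists was added after the data were seen. Libraries of a group were checked for copies: chi-square over degrees of freedom was 3.08 to 39.7 between them, above counting noise for each pair.

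The members and the other gene lists were chosen with earlier results of these data known. Values in every library are given for members called in a comparison, the 3 with the lowest unadjusted p in each comparison of groups, the 3 highest and 3 lowest per length, those with fewer than 10 counts in a library and those with fractional counts; of the vascular lists, the 2 genes with the lowest p in each comparison are named, except 1 that is not reported here. Other genes named (Clec14a, Pecam1, Flt1, Kdr, Sox18, Egfl7, Vegfa and Flt4, among others) were chosen after their values were seen. Exon sequences and exon positions come from GENCODE M21 on GRCm38, the assembly behind mm10, and gene positions from RefSeq.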

Additional observations from a re-analysis of the deposited data

How the results depend on the processing

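By the alternatives tried, no member other than Sox17 and Ly6c1 passed in any comparison; DESeq2 gave no adjusted p to Ly6c1 in any comparison; in 8276OV over 5NC it gave none to 15 of the 29, Sox7 among them, and in both constructs over both controls none to 18. Counts of all genes that passed moved by more than 1.5 times as follows. With total counts only they were 163 for 8276OV over 5NC, 68 for 5NC over 3NC and 68 for both constructs over both controls. With DESeq2 they were 742, 23 (8276KD over 3NC), 305 (5NC over 3NC), 12 (8276OV over 8276KD), 53 (difference of effects) and 675 (both constructs). Fitting only the groups compared gave 0 by edgeR for 8276KD over 3NC (831 genes at an unadjusted p under 0.05) and 9 for 5NC over 3NC. With 3NC T2 left out of the fit, 8276OV over 5NC gave 521.

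Leaving out each library of the groups compared in turn, these counts ran from 5 to 217 for 8276OV over 5NC, 1 to 9 for 8276KD over 3NC, 7 to 126 for 5NC over 3NC, 0 to 2 for 8276OV over 8276KD, 3 to 12 for the difference of effects and 6 to 300 for both constructs. The members' median log2 fold change in 8276OV over 5NC ran from -0.0357 to 0.143. Fold changes that turned sign without 3NC T2 ran, in 8276KD over 3NC, from -1.58 to 0.347 for Ly6c1, -1.15 to 0.234 for Cd93, -0.828 to 0.425 for Pecam1 and -1.07 to 0.0276 for Robo4. In 5NC over 3NC they ran from -0.977 to 0.95 for Ly6c1, -1.03 to 0.359 for Cd93 and -1.07 to 0.183 for Pecam1; with Ly6c2 summed and 3NC T2 left out, Ly6c1 was at 0.767.

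Deviations of libraries with the same number from their group means correlated at r from -0.125 to 0.313 over genes. Libraries with different numbers were not correlated for comparison, so these values cannot decide whether the numbers pair the samples. With the replicate number as a block, the counts were 269 for 8276OV over 5NC, 6 for the difference of effects and 386 for both constructs, and Sox17 passed in the last (log2 fold change -0.415, adjusted p = 0.0425). The cause of these changes was not tested. Depth limits Gpihbp1, Tal1, Icam2 and Plvap most, which had fewer than 10 counts in some library.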
